A study of Mus musculus with 6 samples.

Results

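Klk1, Klk1b21, Klk1b24 and Klk1b27 are tissue kallikrein genes of 1 cluster on mouse chromosome 7, with other kallikrein genes between them, and their RNA was compared between MA-10 cells and STARKO1 cells. These 4 genes were taken from the 14774 genes in the deposited table by their gene symbols. They were chosen on the difference between the cell lines itself, so that difference is described here without a test. MA-10 is a mouse tumor Leydig cell line, used here as wild type (3 libraries, genotype wild type, untreated). STARKO1 is a STAR knockout line grown from a single MA-10 cell after CRISPR/Cas9 targeting of exon 2 of Star (3 libraries, genotype STAR KO, untreated). STARKO1 is therefore 1 clone, and what differs in this clone cannot be told apart from what follows the loss of STAR. Both lines carry no other engineered allele in the labels, and both were grown under ordinary conditions. Total RNA was sequenced with a stranded kit, and the labels do not say whether the 3 libraries of a line came from separate cultures, so the spread between them may be technical.

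Tissue kallikreins are secreted serine proteases of the trypsin type, made as inactive precursors and activated by cleavage. The family's founding enzyme, Klk1, releases kinins from kininogens, and the kinins act on cell surface receptors to relax vessels and raise their permeability. The mouse carries a large group of Klk1b genes that arose by duplication of Klk1, and several of their products are known from salivary gland, kidney and testis. Klk1b21, Klk1b24 and Klk1b27 are known from Leydig cells of the adult mouse testis, where some of their products have been described as proteases acting on growth factor binding proteins and matrix.

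The total count was between 14114351 and 19530062 per library. Star, the targeted gene, was 77.2 ± 27.8 CPM in MA-10 cells (SD, n = 3) and 2.26 ± 0.386 CPM in STARKO1 cells (SD, n = 3), and edgeR's quasi-likelihood test gave a log2 fold change of -5.09 (SE 0.33, adjusted p = 0.00121). CPM, counts per 1000000, are relative to the library size after TMM scaling. Across genes, MA-10 replicate 1 correlated with the STARKO1 libraries at r = 0.949 to 0.955 but with MA-10 replicate 2 at 0.802. Noncoding 7SL RNA took 1.81% of the counts in MA-10 replicate 1, 14.4% in replicate 2, 6.63% in replicate 3 and 1.82% to 2.37% in STARKO1 libraries. Of 11939 genes tested, 1079 were called at an adjusted p under 0.05, which is 9.04%, and the 513 with a higher level in the knockout line made up 4.30% of the genes tested. Without MA-10 replicate 1, 65.7% of 12167 genes were called. All 15 Leydig markers examined had a row in the table, with a summed level of 2333 to 3002 CPM in MA-10 cells and 1952 to 2021 CPM in STARKO1 cells. Of 13 tested, 2 were called, Star and Hsd3b1, a steroidogenic enzyme with an MA-10 mean of 29.8 CPM and a STARKO1 mean of 5.18 CPM (log2 fold change -2.52, SE 0.22, adjusted p = 0.00268 by edgeR). The steroidogenic enzyme Cyp11a1 was 834 and 438 CPM on average, and Insl3, a Leydig peptide hormone, was 59.1 and 71.6 CPM, and neither was called.

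The 4 genes lie on the plus strand of GRCm38, with Klk1b27 at chr7:44052290-44056712, Klk1b21 at chr7:44102328-44106583, Klk1b24 at chr7:44188236-44192455 and Klk1 at chr7:44225360-44229618. Each has 5 exons and a complete reading frame, of 261 codons in Klk1 and Klk1b21 and of 263 codons in Klk1b24 and Klk1b27. A stretch of 30 codons around the catalytic serine, encoded in exons 4 and 5, shows how alike the members are and what sets Klk1b27 apart. It covers codons 198 to 227 in Klk1 and Klk1b21 and codons 200 to 229 in the other two, and capitals mark the 11 bases that differ between any of the members.
Klk1: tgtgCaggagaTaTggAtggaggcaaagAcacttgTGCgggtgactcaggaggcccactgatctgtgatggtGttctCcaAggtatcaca
Klk1b21: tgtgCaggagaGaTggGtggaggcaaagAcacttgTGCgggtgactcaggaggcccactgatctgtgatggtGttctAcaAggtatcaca
Klk1b24: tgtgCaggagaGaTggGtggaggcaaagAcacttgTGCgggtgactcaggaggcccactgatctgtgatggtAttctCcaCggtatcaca
Klk1b27: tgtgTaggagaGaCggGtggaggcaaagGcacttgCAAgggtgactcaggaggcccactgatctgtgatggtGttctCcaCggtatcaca
The codon of the catalytic serine, number 213 in Klk1 and Klk1b21 and 215 in Klk1b24 and Klk1b27, is the same in each. In trypsin-type proteases the residue 6 positions before this serine lies at the bottom of the pocket that selects the cleavage site. Its codon, number 207 in Klk1 and Klk1b21 and 209 in Klk1b24 and Klk1b27, reads gac in Klk1, Klk1b21 and Klk1b24 and ggc in Klk1b27.

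The run of 30 codons without a gap that has the most differences, in exons 3 and 4, shows where the aligned coding sequences differ most. Untranslated parts were not searched for it. It covers codons 163 to 192 in Klk1 and Klk1b21 and 165 to 194 in Klk1b24 and Klk1b27, with the 29 bases that differ in capitals.
Klk1: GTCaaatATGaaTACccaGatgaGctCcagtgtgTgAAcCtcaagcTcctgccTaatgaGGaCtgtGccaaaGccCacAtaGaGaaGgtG
Klk1b21: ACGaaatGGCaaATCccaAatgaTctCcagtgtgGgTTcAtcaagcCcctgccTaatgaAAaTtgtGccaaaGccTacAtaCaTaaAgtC
Klk1b24: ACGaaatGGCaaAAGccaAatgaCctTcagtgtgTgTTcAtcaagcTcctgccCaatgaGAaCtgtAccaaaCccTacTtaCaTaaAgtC
Klk1b27: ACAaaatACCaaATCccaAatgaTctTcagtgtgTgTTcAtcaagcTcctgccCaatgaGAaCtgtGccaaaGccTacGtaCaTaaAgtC
Over the whole coding sequence, 161 of 795 aligned positions differed between any of the 4 genes. Klk1b21 was 93.74% identical to Klk1b24 and to Klk1b27, and Klk1b24 was 93.56% identical to Klk1b27. Klk1 stood further off, with an identity of 87.15% to Klk1b21, 85.44% to Klk1b24 and 84.67% to Klk1b27.

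Klk1, the kinin-releasing enzyme, had the most counts of the members in every library. It had 44, 36 and 22 counts in MA-10 replicates 1, 2 and 3 and 1595, 951 and 1361 counts in STARKO1 replicates 1, 2 and 3. In CPM this was 2.52, 3.12 and 1.94 in MA-10 cells and 68.5, 56.0 and 76.4 in STARKO1 cells. The lowest STARKO1 library was 18.0 times the highest MA-10 library, so the lines did not overlap. The STARKO1 mean was 67.0 ± 10.3 CPM against an MA-10 mean of 2.52 ± 0.592 CPM (SD, n = 3 each), and the ratio of the summed counts, scaled by the summed library sizes, was 26.6 with a 95% Clopper-Pearson interval of 21.9 to 32.8. These intervals cover counting error alone, since the counts of the 3 libraries were summed, and they leave out the variation between libraries. PCR copies were not removed by molecular identifiers as far as the sources used here state, so the intervals may be too narrow even for that. On the scale of CPM per kilobase of exon, Klk1 had rank 8368 of 14677 genes in MA-10 cells and rank 631 in STARKO1 cells.

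Klk1b21 had 12, 8 and 5 counts in MA-10 cells and 295, 180 and 209 counts in STARKO1 cells. This corresponded to 0.687, 0.693 and 0.440 CPM in MA-10 replicates 1, 2 and 3 and to 12.7, 10.6 and 11.7 CPM in STARKO1 replicates 1, 2 and 3. The ratio of the summed counts was 19.03 (95% interval 12.8 to 29.6), the lowest of the members. Its STARKO1 libraries were also the closest to each other, with the highest 1.20 times the lowest.

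Klk1b24 was near the limit of detection in MA-10 cells, with 5, 2 and 1 counts, and had 295, 168 and 235 counts in STARKO1 cells. In CPM these were 0.286, 0.173 and 0.0880 in MA-10 cells and 12.7, 9.89 and 13.2 in STARKO1 cells. The ratio of the summed counts was 60.7, and its 95% interval ran from 30.6 to 141 because the MA-10 libraries held 8 counts in all. Klk1b27 had 3, 1 and 3 counts in MA-10 cells and 377, 192 and 293 counts in STARKO1 cells. Its CPM was 0.172, 0.0867 and 0.264 in MA-10 cells and 16.2, 11.3 and 16.4 in STARKO1 cells. The ratio was 85.6 with an interval of 41.4 to 214, resting on 7 MA-10 counts. At these depths 3 counts in a library stood for 0.172 to 0.264 CPM in MA-10 cells, so the differences among the MA-10 libraries for Klk1b24 and Klk1b27 were not resolved.

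All 4 genes were higher in each STARKO1 library than in any MA-10 library, where 21.5% of all genes tested showed that arrangement. The members were chosen for this difference, so the count adds nothing to it. Summed over the members, the MA-10 libraries held 3.66, 4.07 and 2.73 CPM and the STARKO1 libraries 110, 87.8 and 118 CPM, in the order of their replicates. The ratio of the sums, 30.1 (95% interval 25.5 to 35.8), does not depend on how reads were divided between the members. MA-10 replicate 1, which resembled the STARKO1 libraries over all genes, held the members at MA-10 levels. Without it the log2 ratio of the mean summed CPM was 5.05, against 4.92 with all libraries. STARKO1 replicate 2 was the lowest of its line for each of the 4 genes. In these bulk libraries, more cells with a transcript and more transcript per cell cannot be told apart.

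**Figure D1:**
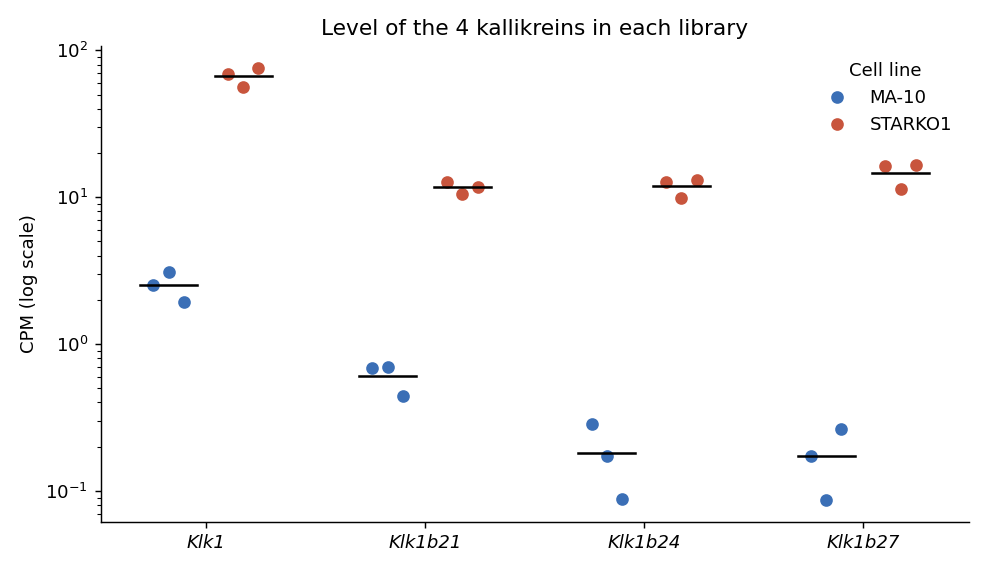
CPM of each kallikrein in each library on a log scale, with MA-10 libraries in blue, STARKO1 libraries in red, replicates 1 to 3 from left to right and a black line at the mean of 3 libraries. For Klk1 the MA-10 points lie between 1.94 and 3.12 CPM and the STARKO1 points between 56.0 and 76.4 CPM, and the lines are apart for every gene.

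Levels of different genes were set against each other per kilobase of exon, on which the share of each member in the summed CPM per kilobase of the 4 was taken. In STARKO1 cells Klk1 made up 58.8% ± 1.38 (SD, n = 3), Klk1b27 15.5% ± 1.02, Klk1b24 12.8% ± 0.153 and Klk1b21 12.8% ± 1.23. Klk1 was apart from the rest in every library, between 57.4% and 60.2%. Klk1b27 was above Klk1b24 and Klk1b21 in each STARKO1 library, whereas Klk1b24 and Klk1b21 changed places between libraries and did not differ beyond their spread. In MA-10 cells the shares were 67.8% ± 4.38 for Klk1, 20.1% ± 1.46 for Klk1b21, 5.87% ± 2.73 for Klk1b24 and 6.25% ± 4.36 for Klk1b27. There Klk1b21 held the next largest share in each library, from 18.7% to 21.6%, against 11.4% to 13.8% in STARKO1 cells. Its MA-10 share rested on 12, 8 and 5 counts. The share of Klk1b24 differed the other way, and the division of reads between these genes, given below, leaves their separate shares uncertain. Klk1b24 and Klk1b27 rested on 1 to 5 counts a library in MA-10 cells and their order could not be read.

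**Figure D2:**
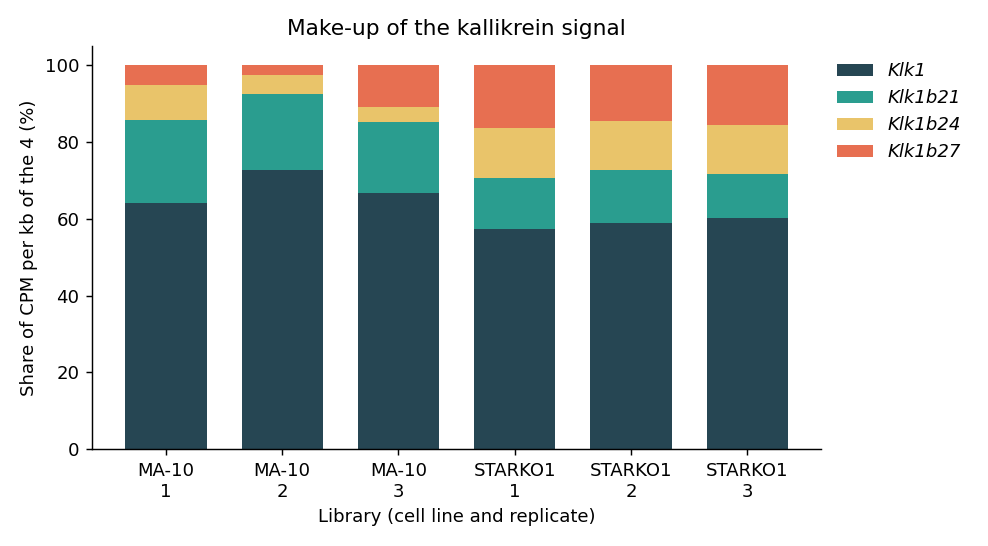
Share of each kallikrein in the summed CPM per kilobase of the 4 genes, in percent, as stacked bars for MA-10 libraries 1 to 3 and STARKO1 libraries 1 to 3. Klk1 fills 57.4% to 60.2% of the STARKO1 bars, and Klk1b24 and Klk1b27 are wider there than in MA-10 bars.

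The likeness of the members limits how far their counts can be kept apart. A window of 50 bases of the transcript was also found in another kallikrein transcript for 28.4% of the windows of Klk1, 29.1% of Klk1b21, 33.9% of Klk1b24 and 14.3% of Klk1b27. With windows of 100 bases these shares fell to 6.08%, 3.50%, 2.57% and 1.77%. Klk1b21 and Klk1b24 shared more with each other than any other pair of members, at 169 of 822 windows of 50 bases in Klk1b21. Klk1 shared most with kallikreins that have no row in the table (246 of 257 shared windows), among them Klk1b3, Klk1b4 and Klk1b5, its neighbours on the chromosome. The estimated counts bear marks of divided reads. In the STARKO1 libraries the values of Klk1, Klk1b21 and Klk1b24 were not whole, while those of Klk1b27 were whole in all 6 libraries (tolerance 1e-04). The values of Klk1b21 and Klk1b24 added up to a whole number in STARKO1 replicates 1 and 3, at 590 and 444, but to 347.163 in replicate 2. The individual levels of Klk1b21 and Klk1b24 are therefore uncertain by the reads that the counting divided between them.

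**Figure D3:**
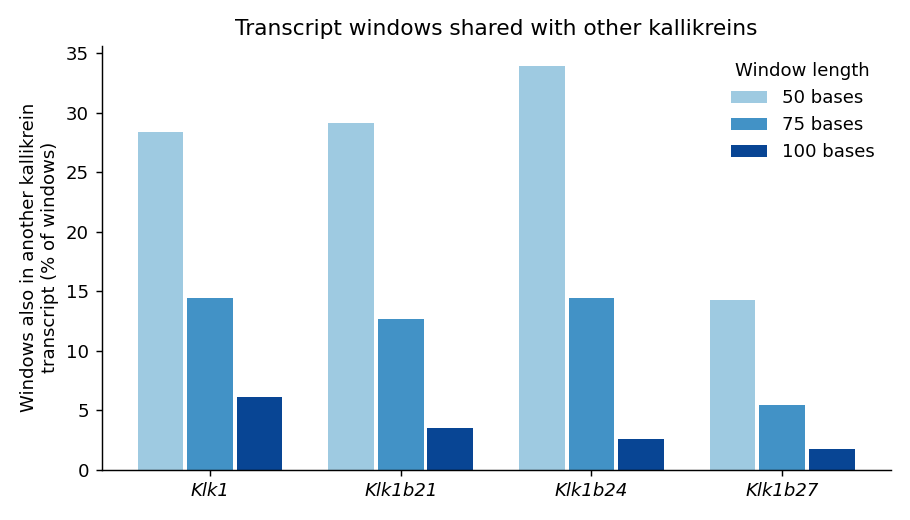
Percent of each transcript's windows of 50, 75 or 100 bases that also occur in another annotated kallikrein transcript, as bars from 0. Klk1b27 has the lowest share at each length, with 14.3% at 50 bases and 1.77% at 100 bases.

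The annotation places 37 kallikrein genes on chromosome 7, of which 26 are protein coding and 11 pseudogenes. Rows for 9 of them were found, and the other 28, including the 12 genes from Klk4 to Klk15, were not analysed here. Besides the 4 members, these were Klk1b1, Klk1b8, Klk1b16, Klk1b22 and Klk1b26, further products of the same duplications. Every one of these 5 had 0 counts in each MA-10 library. No gene with a row had fewer than 10 counts over all libraries. A gene with 0 MA-10 counts thus has a row only through its STARKO1 counts, and the direction of these 5 adds nothing by itself. Klk1b22 had 47, 29 and 34 counts in STARKO1 replicates 1, 2 and 3 and was at least 25.5-fold higher there, taking 3 counts over the 3 MA-10 libraries as the floor. Klk1b1 had 34, 10 and 20 counts and was at least 14.8-fold higher. Klk1b16, with 12, 5 and 8 counts, was at least 5.80-fold higher, Klk1b26, with 8, 2 and 3 counts, at least 3.01-fold, and Klk1b8, with 9, 3 and 0 counts, at least 2.78-fold. These bounds make no allowance for error in the STARKO1 counts. Klk1b1 and Klk1b22 passed the filter on low counts, and edgeR gave adjusted p values of 0.0289 and 0.00810, but they passed through the STARKO1 libraries alone. Neither was called with a replicate block, nor without any of the STARKO1 replicates in turn. Without MA-10 replicate 2 or MA-10 replicate 3, 1 of them was called. Together the 5 genes reached 4.73, 2.89 and 3.65 CPM in STARKO1 cells, against 110, 87.8 and 118 CPM for the members. In Klk1b21 61 windows of 50 bases also occur in these 5 genes, and in Klk1b24 96. With windows of 75 bases these were 0 and 17, and with 100 bases 0 in both. Reads of the members may thus be counted in these 5 genes only where they fall in such short stretches, which was not tested. The values of these 5 genes were whole in every library, like those of Klk1b27.

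The members that differ together were also compared in the sequence before their starts. The stretch below, 120 bases from the RefSeq sequence of GRCm38.p6 on the plus strand, was cut in each promoter to begin 20 bases before a copy of the motif TGACCT, which is in capitals. The motif begins 109 bases before the RefSeq start in Klk1, 153 in Klk1b21, 188 in Klk1b24 and 176 in Klk1b27. Counted from the GENCODE start it lies at -189 in Klk1b21 and at -188 in Klk1b24, so its distance depends on the annotated start. The stretch was read at chr7:44225231-44225350 for Klk1, chr7:44102119-44102238 for Klk1b21, chr7:44188028-44188147 for Klk1b24 and chr7:44052094-44052213 for Klk1b27.
Klk1: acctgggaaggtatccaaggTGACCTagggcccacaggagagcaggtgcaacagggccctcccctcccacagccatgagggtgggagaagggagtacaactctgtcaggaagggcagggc
Klk1b21: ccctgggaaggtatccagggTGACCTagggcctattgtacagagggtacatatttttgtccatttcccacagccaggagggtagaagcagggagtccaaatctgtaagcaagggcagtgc
Klk1b24: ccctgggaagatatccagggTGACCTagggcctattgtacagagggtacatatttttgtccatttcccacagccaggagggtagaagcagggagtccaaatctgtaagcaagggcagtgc
Klk1b27: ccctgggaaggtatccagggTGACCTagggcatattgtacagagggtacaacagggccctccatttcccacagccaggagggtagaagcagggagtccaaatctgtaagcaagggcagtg
Klk1b21 and Klk1b24 were identical at 119 of 120 positions, and Klk1b27 was 93.28% identical to Klk1b21. Klk1 was 81.51% identical to Klk1b27, 76.47% to Klk1b21 and 75.63% to Klk1b24. TGACCT is the reverse complement of AGGTCA, the half-site that many nuclear receptors bind. In the window from 250 bases before to 50 after the start, AGGTCA occurred on either strand in 4 of 4 members, in 11 of the 14 Klk1 and Klk1b promoters and in 16.26% of all 32851 promoters. TTTAAA occurred in 3 of 4 members, in 13 of the 14 related promoters and in 13.16% of all promoters. In Klk1 it lies 51 bases after the GENCODE start, just outside this window. TATAAA, the usual TATA box core, was in none of the 14, and 13.62% of all promoters held it. The cAMP response element TGACGTCA was in none of the members and in 1.79% of all promoters. All motifs were searched on both strands, were chosen after these sequences had been seen, and are matches of letters, not sites of binding.

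Genes within 1000 kb of the span of the members were compared to see whether the difference was limited to kallikreins. Of 44 neighbours tested, 9 were called (4 higher and 5 lower in STARKO1 cells), 20.5% against 9.04% of all genes. The median log2 fold change of the neighbours was -0.04, against -0.05 over all genes. On the whole of chromosome 7, without kallikreins, 89 of 913 genes were called, 32 of them higher.

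The 3 tested genes that follow Klk1 in order were all higher in STARKO1 cells. 1700028J19Rik, which lies 0.193 kb beyond Klk1 on the other strand, had 3, 2 and 5 counts in MA-10 cells and 43, 28 and 33 counts in STARKO1 cells, and edgeR put its log2 fold change at 2.79 (SE 0.42, adjusted p = 0.0148). 2410002F23Rik, 17.1 kb beyond Klk1, had 131, 118 and 81 counts in MA-10 cells and 814, 526 and 754 counts in STARKO1 cells. The log2 fold change by edgeR was 2.12 (SE 0.22, adjusted p = 0.00474), and the gene was called without each of the 6 libraries in turn. Shank1, a scaffold protein of synapses, lies 80.6 kb beyond Klk1 and had 55, 12 and 16 counts in MA-10 cells and 156, 99 and 125 counts in STARKO1 cells. For it edgeR gave a log2 fold change of 1.76 (SE 0.41, adjusted p = 0.0451). With each library left out in turn, Shank1 was called in 1 of 6 fits and 1700028J19Rik in 3. Neither was called with a replicate block. The lines did not overlap in any of these 3 genes, and the ratios of mean CPM, 6.82, 4.36 and 3.49 in order of distance, were below those of the members. The next tested gene, Josd2 at 238 kb, had a log2 fold change of -1.08 (adjusted p = 0.0768). On the other side of the cluster the nearest tested gene was Ctu1, 374 kb before Klk1b27, with a log2 fold change of 0.71 (adjusted p = 0.290 by edgeR), and of 1.60 without MA-10 replicate 1 (adjusted p = 0.000548). Gm10109, a gene on the minus strand that overlaps the start of Klk1, had 2, 0 and 0 counts in MA-10 cells and 10, 8 and 11 counts in STARKO1 cells. It did not pass the filter, and as the strand setting of the counting is not given in the sources used here, its reads cannot be told apart from those of Klk1. Whether reads from Klk1 were counted in 1700028J19Rik was not tested.

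Further away, the nonmuscle myosin Myh14 (log2 fold change -1.57, SE 0.18, adjusted p = 0.00699), the GTPase Rras (-1.31, SE 0.19, adjusted p = 0.0137) and the Fc receptor Fcgrt (-0.73, SE 0.15, adjusted p = 0.0369) were lower in STARKO1 cells by edgeR, and the interferon regulator Irf3 (0.94, SE 0.21, adjusted p = 0.0422) was higher. The count of neighbours called was 34 of 47 without MA-10 replicate 1, where 65.7% of all genes were called. It was 4 without MA-10 replicate 2 (4.19% of all genes), 3 without MA-10 replicate 3 (1.49%) and 1 without each of the STARKO1 replicates (0.73% to 1.11%). The 1 gene left without any STARKO1 replicate was 2410002F23Rik.

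**Figure D4:**
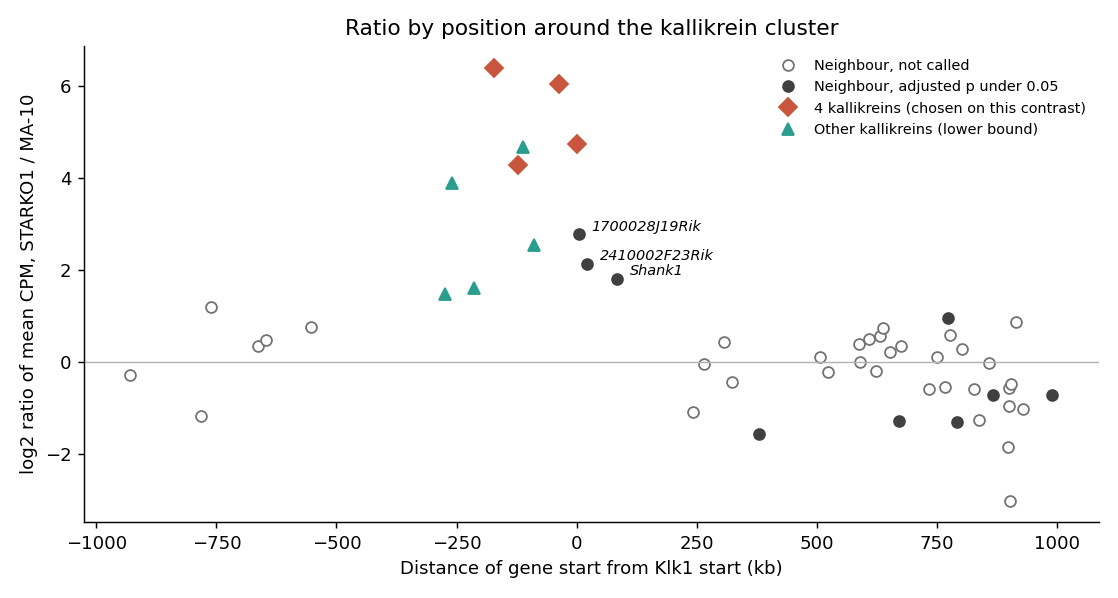
log2 ratio of mean CPM, STARKO1 over MA-10, against the distance of each gene's start from that of Klk1 in kb. Red diamonds are the 4 kallikreins, green triangles the lower bounds of the other 5, filled circles neighbours with an adjusted p under 0.05 and open circles other tested neighbours, and the 3 named circles just to the right of Klk1 lie at ratios of 6.82, 4.36 and 3.49 before the log.

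The gene lists from here on were chosen with earlier results of these data known, so their shares of calls are descriptions. Of the genes that act with kallikreins, the kinin pathway list covered kininogens, kinin receptors, kinin-degrading peptidases and downstream signalling. Rows were found for 19 of its 37 genes. The kininogens Kng1 and Kng2, the kinin receptors Bdkrb1 and Bdkrb2 and plasma kallikrein Klkb1 were not among them and were not analysed here. Of 17 genes tested, 1 was called, which is 5.88% against 9.04% of all genes, and the median log2 fold change was 0.26 against -0.05. Plcb2, a phospholipase C that acts downstream of G proteins, had 12, 5 and 7 counts in MA-10 cells and 82, 57 and 58 counts in STARKO1 cells (log2 fold change 2.51, SE 0.29, adjusted p = 0.00642 by edgeR). The most abundant members of the list that were not called were C1qbp, Ece1 and Prep. Their log2 fold changes were 0.22, 0.53 and 0.04, and Prep, a peptidase that can cut kinins, was lower in the fit without MA-10 replicate 1 (-0.080). The count was 10 of 17 without MA-10 replicate 1, where 65.7% of all genes were called. It was 1 without either of the other MA-10 replicates (4.19% and 1.49% of all genes) and 0 without each STARKO1 replicate (0.73% to 1.11%).

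Among the protease inhibitors 10 of 51 genes had a row, and 1 of 8 tested was called (12.5%, against 9.04% of all genes). This was Serpinb6b, an intracellular serpin. It had 74, 65 and 64 counts in MA-10 cells and 1, 3 and 1 counts in STARKO1 cells (log2 fold change -5.77, SE 0.46, adjusted p = 0.00228 by edgeR), and it was called without each library in turn. Its close relative Serpinb6a, which had 11022 to 17088 counts a library, had a log2 fold change of -0.58 (adjusted p = 0.0820). The abundant Pebp1, of a family of protease and kinase inhibitors, was at -0.05 and the cysteine protease inhibitor Cst3 at -0.41, neither was called, and library size scaling turned both signs. The inhibitor list had a median log2 fold change of -0.49 against -0.05 over all genes. Without MA-10 replicate 1 there were 6 calls of 8 tested, where 65.7% of all genes were called.

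Substrates and targets of kallikreins, such as growth factor binding proteins, matrix and protease-activated receptors, gave 4 calls of 17 tested, 2 in each direction (23.5%, against 9.04% of all genes, median log2 fold change -0.04). Igfbp5, an IGF-binding protein, had 36, 6 and 13 counts in MA-10 cells and 7944, 2740 and 7827 counts in STARKO1 cells (log2 fold change 7.92, SE 0.65, adjusted p = 0.00228 by edgeR). As with the members, STARKO1 replicate 2 was the lowest of its line. Agt, the precursor of angiotensin, had 70, 40 and 26 counts in MA-10 cells and 575, 387 and 423 counts in STARKO1 cells (2.85, SE 0.24, adjusted p = 0.00228). F2r, a thrombin receptor activated by proteolysis, fell from 736, 299 and 364 counts to 89, 50 and 49 counts (log2 fold change -3.39, SE 0.26, adjusted p = 0.00220). Igfbp4, another IGF-binding protein, fell from 31, 17 and 29 counts to 7, 6 and 3 counts (-2.78, SE 0.41, adjusted p = 0.0142). Igfbp5, Agt and F2r were called without each library in turn, and Igfbp4 without 2 of the 6. The most abundant genes not called were Igfbp6 (log2 fold change -0.86) and the laminin chains Lamb1 (-0.04) and Lamc1 (-0.12), whose sign turned with library size scaling for both laminins. There were 12 calls of 17 tested without MA-10 replicate 1, where 65.7% of all genes were called. There were 3 or 4 without each of the other libraries (0.73% to 4.19% of all genes).

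Other serine protease genes gave 5 calls of 21 tested, 4 higher and 1 lower (23.8%, against 9.04% of all genes, median log2 fold change 0.06 against -0.05). Those higher in STARKO1 cells were the membrane protease Tmprss13 (log2 fold change 1.52, adjusted p = 0.0272 by edgeR), the plasma protease Habp2 (1.81, adjusted p = 0.0452), the complement protease C1rb (1.65, adjusted p = 0.0234) and F3 (1.41, adjusted p = 0.0228). F3 encodes tissue factor, which is a cofactor of a protease and not itself one. C1s1, a complement protease, was lower (-1.03, adjusted p = 0.0167 by edgeR). The values of C1rb and C1s1 were not whole, as in 54.1% of all genes, and whether reads had been divided with related genes was not tested. The most abundant uncalled genes were Lonp1, a mitochondrial protease (-0.19, positive with library size scaling), Htra1 (0.40) and Mbtps1 (0.38). None of the 5 was called with a replicate block. There were 14 calls of 21 tested without MA-10 replicate 1, where 65.7% of all genes were called. There were 2 without MA-10 replicate 2 (4.19% of all genes) and 0 without MA-10 replicate 3 or any STARKO1 replicate (0.73% to 1.49%).

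The hormone receptor list, of genes that act on glandular kallikreins or in Leydig cells, gave 1 call of 10 tested (10%, against 9.04% of all genes, median log2 fold change 0.47 against -0.05). This was Srd5a2, which is not a receptor but the enzyme that makes dihydrotestosterone, with 1, 6 and 2 counts in MA-10 cells and 37, 41 and 30 counts in STARKO1 cells (log2 fold change 2.99, SE 0.62, adjusted p = 0.0357 by edgeR). The most abundant genes not called were the estrogen receptor Esr1, with a log2 fold change of 0.53 (adjusted p = 0.141), the Leydig cell regulator Nr5a1, with 0.42 (adjusted p = 0.189), and the thyroid hormone receptor Thra, with -0.05 (adjusted p = 0.849), whose sign turned with library size and upper quartile scaling. There were 8 calls of 10 tested without MA-10 replicate 1, where 65.7% of all genes were called. There was 1 without MA-10 replicate 2 (4.19% of all genes) and 0 without MA-10 replicate 3 or any STARKO1 replicate (0.73% to 1.49%).

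**Figure D5:**
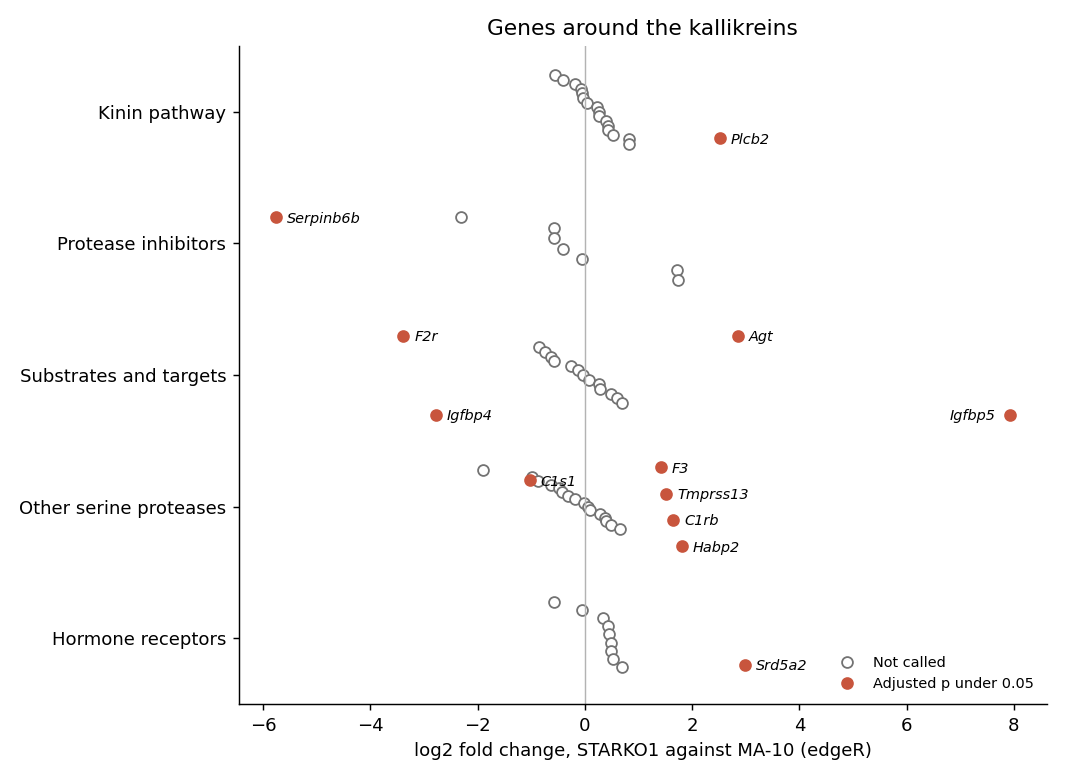
log2 fold change by edgeR, STARKO1 against MA-10, of each tested gene of the 5 lists, with genes at an adjusted p under 0.05 in red and named and the others as open circles. The red genes run from Serpinb6b at -5.77 to Igfbp5 at 7.92, and most open circles lie near 0.

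Salivary gland and duct markers were examined because these are the cells best known for kallikreins. Of 11 such genes 4 had a row, and their summed level was 3.99 to 5.09 CPM in MA-10 cells and 6.29 to 6.48 CPM in STARKO1 cells. Lcn2, a secreted iron-carrier protein, was the 1 called of 4 tested (25%, against 9.04% of all genes), with 2, 1 and 1 counts in MA-10 cells and 63, 32 and 30 counts in STARKO1 cells (log2 fold change 4.31, SE 0.44, adjusted p = 0.00456 by edgeR). The digestive enzyme Amy1, the water channel Aqp5 and the secretory cell regulator Bhlha15 were each under 3 CPM on average in both lines. Lcn2, with a STARKO1 mean of 2.09 CPM and an MA-10 mean of 0.0964 CPM, made up most of the difference in the sum, while the means of Amy1 and Bhlha15 were lower in STARKO1 cells and neither was called. Summed Sertoli markers were 724 to 894 CPM in MA-10 cells and 991 to 1014 CPM in STARKO1 cells, germ cell markers 107 to 212 and 232 to 237 CPM, peritubular markers 14.4 to 22.7 and 1.76 to 2.59 CPM, and macrophage markers 6.41 to 12.9 and 7.36 to 10.3 CPM. Only 6 of 12 Sertoli markers had a row, and 0 of 5 tested were called. Their sum was mostly Rhox5 (389 and 558 CPM on average), Clu (310 and 230 CPM, the other way) and Amhr2 (60.6 and 183 CPM). The germ cell sum was nearly all Kit, at 145 and 232 CPM on average, whereas the germ cell helicase Ddx4 averaged 3.01 and 2.42 CPM. Both are cultured lines, and STARKO1 was grown from a single MA-10 cell. These sums are therefore levels within the lines, not shares of other cell types. Whether any of these markers bears on the level of the kallikreins was not tested.

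The genes most like each member across the 6 libraries were found by the Euclidean distance of centred log2 CPM (prior count 2) among 11346 genes of at least 1 CPM on average. For Klk1 these were Cspg4 (distance 0.596), Dnah10 (0.728) and Pnp2 (0.842), and for Klk1b21 they were Fry (0.358), Cspg4 (0.402) and Tgm3 (0.692). Klk1b24 and Klk1b27 were near each other (1.19), and each also had Klk1 (1.00 and 1.64) and Pnp2 (1.18 and 1.46) among its nearest 3 genes. Pnp2, a purine nucleoside phosphorylase, had 6, 2 and 3 counts in MA-10 cells and 211, 133 and 166 counts in STARKO1 cells. Cspg4 and Dnah10 had 0 or 1 count in each MA-10 library, where the prior count sets the distance. Klk1b24, with 5, 2 and 1 MA-10 counts, Klk1b27, with 3, 1 and 3, and Pnp2 also lay near the prior count there. Their distances depend on it in part, and all distances hold the line difference on which the members were chosen. Klk1b21 was closer to genes on other chromosomes than to Klk1 (0.847), Klk1b24 (1.66) or Klk1b27 (2.26).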

How the data were processed

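The authors deposited estimated counts per gene for 6 libraries, not scaled for library size. The submitters' processing notes name STAR 2.6.1d, Partek and build mm10, with the counting method and its strand setting not given in the sources used here. Of the values, 54.1% of genes had at least 1 that was not whole. All columns were matched to a library by name.

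The counts were rounded, and edgeR 4.0.16 under R 4.3.3 was used (filterByExpr, TMM, quasi-likelihood test, no replicate block, Benjamini-Hochberg over 11939 genes, adjusted p under 0.05 called). Standard errors are the log2 fold change divided by the square root of F. The members and lists were chosen with earlier results of these data known, so the members have no test. Genes named are the members, other kallikreins with a row, per list up to 6 called genes and the 3 most abundant uncalled ones, kinin receptors and kininogens, up to 6 called neighbours and the nearest tested on each side, Star, and the 3 genes nearest each member; Shank1, Josd2, the marker genes and any further gene were chosen after their values were seen. Sequences came from GENCODE M21 and RefSeq (GRCm38.p6 promoters) and were aligned with MAFFT 7.526. The labels give same-numbered libraries no pairing beyond the number. Correlations of their deviations were -0.0166 to 0.0455, against -0.0535 to 0.0382 for other pairs, and cannot show whether they shared a culture or batch. A result on 2 list genes is not reported here. Alternatives were DESeq2 1.42.0, other scalings and filters, a replicate block, removal of 7SL RNA and Gm26917, a 2-fold minimum, and leaving out each library. Counts in a library give its precision: 3 counts were 0.129 to 0.264 CPM.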

Additional observations from a re-analysis of the deposited data

How the results depend on the processing

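The 4 kallikreins kept their direction under each scaling, without 7SL RNA, unrounded and without each library. The log2 ratios with library size alone were 5.19 for Klk1, 4.69 for Klk1b21 and 5.36 for the sum, against 4.73, 4.27 and 4.92, a scaling that moves the median of all genes by 0.43 (upper quartile by 0.15). Leaving out a library gave 4.57 to 4.91 for Klk1, 4.08 to 4.46 for Klk1b21, 5.70 to 6.61 for Klk1b24, 6.07 to 6.83 for Klk1b27 and 4.76 to 5.05 for the sum. Without length correction the shares in STARKO1 cells were 63.6% for Klk1, 11.2% for Klk1b21, 11.3% for Klk1b24 and 13.9% for Klk1b27. For Star the log2 fold change ran from -5.23 to -4.76 without each library, and its call held under every alternative.

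Counts of calls were far less stable. All genes gave 1079 calls (9.04% of those tested), 3395 with DESeq2 (28.4%) and 330 with library size alone (2.76%). There were 829 with upper quartile scaling (6.94%), 691 with at least 10 counts in every library (6.41%) and 234 with a replicate block (1.96%). Without each library they ran from 89 to 7990 (0.73% to 65.7%). The higher calls were 47.5% of the main calls, 38.6% with DESeq2, 63.6% with library size alone and 55.6% with upper quartile scaling. With DESeq2 there were 4 kinin pathway, 5 inhibitor, 9 other serine protease, 2 hormone receptor, 19 neighbouring and 279 chromosome 7 calls. With library size alone there were 2 other serine protease, 2 neighbouring and 25 chromosome 7 calls, and with upper quartile scaling 5 neighbouring calls. With at least 10 counts in every library there were 0 other kallikrein, 0 kinin pathway, 0 inhibitor, 2 substrate, 3 other serine protease, 0 hormone receptor and 56 chromosome 7 calls, since that filter removes genes absent from 1 line. With the replicate block there were 0 other kallikrein, 0 other serine protease, 0 hormone receptor, 2 neighbouring and 17 chromosome 7 calls. The labels do not say whether same-numbered samples were paired. Without each library the calls ran from 0 to 2 (other kallikreins), 0 to 10 (kinin pathway), 1 to 6 (inhibitors), 3 to 12 (substrates), 0 to 14 (other serine proteases), 0 to 8 (hormone receptors), 1 to 34 (neighbours) and 4 to 607 (chromosome 7). Where no construction is named, the cause was not tested.

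Some uncalled genes changed sign. Pebp1 (-0.05) was 0.36 with library size alone, 0.085 with upper quartile scaling, 0.0013 with no filter and -0.18 to 0.17 without each library. Lamb1 (-0.04) was 0.30, 0.074 and 0.0053 in the same order, 0.020 with the replicate block and -0.25 to 0.36 without each library. Lamc1 (-0.12) was 0.18 with library size alone, 0.0061 with the block and -0.42 to 0.43 without each library. Lonp1 (-0.19) was 0.13 with library size alone and -0.41 to 0.30 without each library, Cst3 (-0.41) was 0.12 with library size alone, and Prep (0.04) ran from -0.080 without MA-10 replicate 1 to 0.25 without MA-10 replicate 2. Thra (-0.05) was 0.33 with library size alone, 0.078 with upper quartile scaling and -0.20 to 0.18 without each library. Depth limits Klk1b24 and Klk1b27 in MA-10 cells, where 1 to 5 counts a library set the size of the ratio.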
